A study of Caenorhabditis elegans with 4 samples.

Results

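The regions described here are the peaks of the transcription factor NHR-11, tagged with green fluorescent protein (GFP), on Caenorhabditis elegans chromosome IV outside its piRNA domains. They were chosen by position alone. A peak was a member when it lay on IV and its midpoint fell outside both 4.5 to 7 Mb and 13.5 to 17.2 Mb (build WS220), the borders used here for the piRNA domains. The piRNA genes themselves were not mapped here, so the borders stand as given. The rule found 280 of the 2197 peaks of ChIP replicate 1, 224 of the 1939 peaks of ChIP replicate 2 and 1219 of the 7089 peaks of the list deposited for the whole series. In each list 3 of these were broad peaks between 9.049 and 9.079 Mb, which are described apart. That leaves 277, 221 and 1216 members, and 135 shared regions made by merging replicate 1 and replicate 2 peaks that overlap by at least 1 bp, out of 1212 in all.

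All animals were hermaphrodites of strain OP305 at the third larval stage (L3), grown at 20 °C. The strain carries the mutation unc119(ed3) and the transgene wgIs305, in which nhr-11 is joined to TY1, EGFP and FLAG tags and is accompanied by unc119. Per the labels, the fusion follows the expression pattern of nhr-11. It was introduced by particle bombardment, and the strain was outcrossed 3 times. No change to the worm's own copy of nhr-11 is named in the genotype. Fixed chromatin was precipitated with anti-GFP antibodies in 2 ChIP samples, and 2 input samples of the same strain were kept without precipitation. Whole worms were used, so the cells in which a site was bound are unknown. Nothing in the labels says that the replicates came from separate cultures, so their agreement measures only the spread between these samples.

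NHR-11 belongs to the nuclear hormone receptors, transcription factors that bind DNA through a zinc-finger domain and, in many members, change activity when a small lipid-like ligand is bound. The family is much expanded in C. elegans, and most of its members there have no known ligand. Chromosome IV stands apart from the other chromosomes of the worm because it holds most piRNA genes. These are very small transcription units, each with its own promoter, that lie in large clusters and give rise to short RNAs which guide silencing in the germline. Between and beside the clusters, IV carries ordinary genes. Gene annotation and sequence on WS220 were not used here, so each region is named by its position. In the RefSeq table of another assembly (WBcel235), the gene nhr-11 is itself listed on chromosome IV; its place on WS220 was not determined here.

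The authors' lists give the borders of each peak and a single significance value, the lowest being the strongest. Whether it is a p-value or a q-value is not stated, and all lists end just under 0.001. No read counts come with the peaks, so sequencing depth is unknown and a peak absent from a list may have been missed. The chromosome outside the domains falls into a left block before 4.5 Mb, a middle block between the domains from 7 to 13.5 Mb, and a right block of 0.29 Mb after 17.2 Mb. There is 1 group of ChIP samples and sites are not replicates of a condition, so no test was made between sites; intervals on shares are exact 95% binomial intervals and cover counting error over peaks only.

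Members were spread over all 3 blocks. The left block held 95 replicate 1 peaks, 86 replicate 2 peaks and 49 shared regions. The middle block held 177, 133 and 84. The right block held 5, 2 and 2. Per Mb of chromosome, this gave 21.1 replicate 1 peaks and 19.1 replicate 2 peaks in the left block, 27.4 and 20.6 in the middle block, and 17.2 and 6.89 in the right block. The middle block was thus the densest in both replicate lists, by a margin smaller in replicate 2 than in replicate 1.

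Outside the piRNA domains peaks were denser than inside them when both domains were pooled. Replicate 1 had 24.6 peaks per Mb outside and 18.5 inside, a ratio of 1.33. Replicate 2 had 19.6 outside and 13.9 inside, a ratio of 1.41. Both replicates had the higher density outside, and the mean ratio was 1.37 ± 0.0627 (SD, n = 2). Shared regions stood at 12 per Mb outside and 9.35 inside, against 12.3 on the other 5 chromosomes together, which ranged from 7.36 on V to 20 on I. Series peaks stood at 108 per Mb outside, 90 inside and 64.3 on the other chromosomes. By chromosome the last ranged from 45 on V to 124 on I, so I stood above the members. The domains differed in series peaks, without a test. In the domain from 4.5 to 7 Mb, the complete 1 Mb stretches held 141 and 116 series peaks, above the density outside. They held 28 and 20 replicate 1 peaks, and 20 and 12 replicate 2 peaks. In the domain from 13.5 to 17.2 Mb, such stretches held 69, 79 and 72 series peaks. There replicate 1 had 16, 21 and 11, and replicate 2 had 19, 10 and 10. The lower series density inside thus did not hold for the first domain. In each replicate list, the first of its complete stretches lay above the density outside and the second below. All complete stretches of the second domain lay below it in both replicates. The pooled ratios thus do not show a lower replicate density for the first domain alone.

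The strongest shared region lay in the left block at 654715 to 655102 (388 bp). Replicate 1 gave it a value of 8.33e-37, replicate 2 a value of 2.43e-28, and the series list one of 1.46e-68. By summed rank it held place 30 of all 1212 shared regions, so 29 regions, the broad peaks included, ranked above every member. Both shared regions of the right block were among the strongest members. At 17278260 to 17278847 (588 bp) the value was 5.82e-25 in replicate 1, and replicate 2 gave 7.78e-31. Its neighbour at 17249676 to 17250042 (367 bp) had 1.06e-16 and 1.58e-17. They held places 2 and 6 among the 135 members, in the block with the fewest regions.

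Of the first 8 members, the 3 widest lay in the middle block. At 10821407 to 10822395 (989 bp) the replicates gave 2.20e-24 and 7.29e-24, nearly equal values. At 10935201 to 10937126 (1926 bp) they gave 7.57e-28 and 4.03e-20. This region was the widest of all members, and its peak ended at 10937126 in replicate 1 and at 10936439 in replicate 2, so the replicates did not agree on its right side. The region at 8527285 to 8528131 (847 bp) had 4.39e-19 and 3.27e-20, and a further member at 8525872 to 8526379 lay beside it on the left with 5.75e-10 and 3.06e-11. Such pairs were the exception among members.

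**Figure D1:**
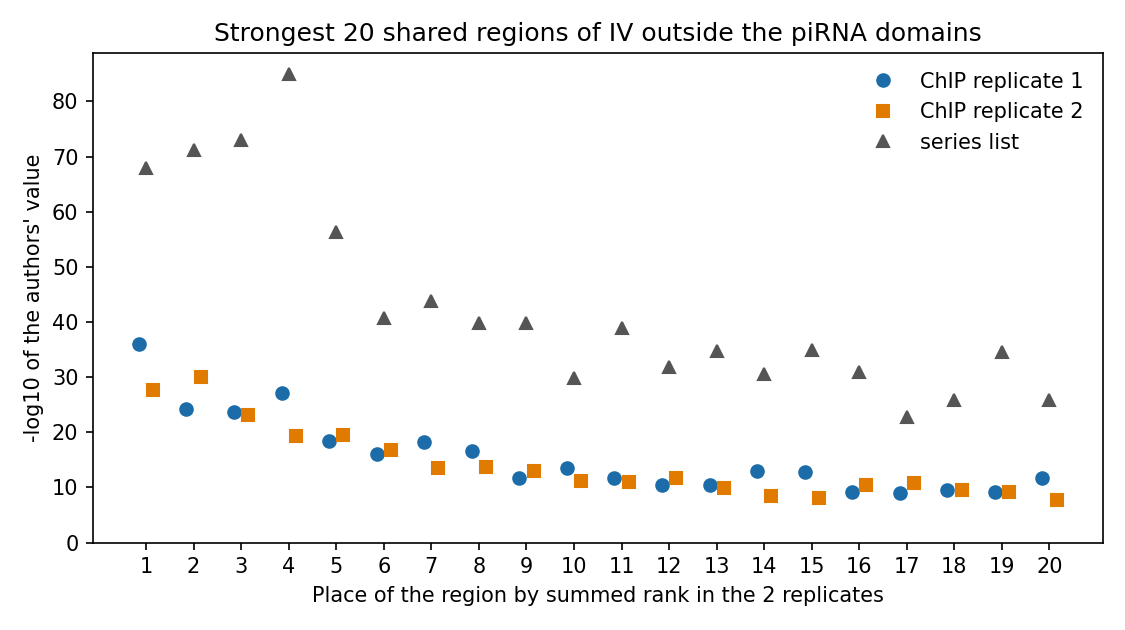
The −log10 of the authors' value (vertical axis) of the first 20 shared regions of chromosome IV outside the piRNA domains, in order of summed rank (horizontal axis); circles are ChIP replicate 1, squares ChIP replicate 2 and triangles the series list. The replicates lie near each other at some places and apart at others, as at place 1 (8.33e-37 and 2.43e-28), while the series list stands above both throughout; the region at place 4, the widest, has the strongest series value (1.21e-85).

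The next members were narrower. The region at 2601969 to 2602359 (391 bp) was listed at 6.63e-19 in replicate 1 and at 2.61e-14 in replicate 2, and its start was the same base in both lists. The region at 13240409 to 13240819 (411 bp) had 2.77e-17 and 2.15e-14. Places 9 and 10 followed at some distance in rank. The region at 10252228 to 10252792 (565 bp) had 1.88e-12 and 1.18e-13, and the region at 4390494 to 4390828 (335 bp) had 3.36e-14 and 8.38e-12. The last of these, the tenth among members, was already place 143 among all shared regions. Members at places 11 to 20 started, in order of summed rank, at 4024121, 1659049, 8431363, 3050270, 11644739, 8525872, 1826722, 2388985, 10503655 and 11149590. Of the first 20, 8 lay in the left block, 10 in the middle block and 2 in the right block, and their widths ran from 310 to 1926 bp with a median of 460 bp.

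Members were a small part of each whole list and a smaller part of its strongest peaks, without a test. The first 100 of the 2197 peaks of replicate 1 held 8 of the 277 members. The first 100 of the 1939 peaks of replicate 2 held 6 of the 221. Domain peaks there were 6 of 115 and 6 of 86, and those of the other chromosomes 83 of 1802 and 85 of 1629. Among members, 6 regions were in the first 100 of both replicates. All 8 in replicate 1 had a replicate 2 peak. Of the 277 replicate 1 members, 18.1% fell in the first quartile of the list by strength and 29.6% in the last. Of the 221 replicate 2 members, the shares were 20.4% and 30.3%. The other chromosomes had 25.8% of their peaks in the first quartile and 24.2% in the last in replicate 1, and 25.4% and 24.1% in replicate 2. Inside the piRNA domains they were 27.0% and 27.8% in replicate 1, and 25.6% and 29.1% in replicate 2. In the last quartile members and domain peaks thus had like shares, both above those of the other chromosomes, and these differences were not tested.

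Sharing between replicates followed strength. In replicate 1, 135 of 277 members (48.7%, 95% interval 42.7 to 54.8%) overlapped a replicate 2 peak, where 55.3% of all replicate 1 peaks did. In replicate 2, 135 of 221 members (61.1%, 54.3 to 67.6%) overlapped a replicate 1 peak, where 62.9% of all did. Peaks inside the piRNA domains were shared in 50.4% of cases (41.0 to 59.9%) for replicate 1 and in 67.4% (56.5 to 77.2%) for replicate 2. Intervals of members and domain peaks overlap in both lists. Among members in the first quartile, 45 of 50 replicate 1 peaks (90%) and 45 of 45 replicate 2 peaks (100%, 92.1 to 100%) were shared, where 95.1% and 97.3% were on the other chromosomes. In the last quartile, 16 of 82 replicate 1 members (19.5%) and 20 of 67 replicate 2 members (29.9%) were, where 26.6% and 34.6% were on the other chromosomes. The intervals of members (11.6 to 29.7% and 19.3 to 42.3%) overlap those of the other chromosomes (22.5 to 31.0% and 29.9 to 39.5%).

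Members called in only 1 replicate were narrow and weak. The 142 such peaks of replicate 1 measured 150 bp in the median, and those shared measured 303 bp; their median values were 0.000235 and 5.32e-06. The 86 such peaks of replicate 2 measured 198 bp, and those shared 306 bp, with median values of 0.000326 and 1.22e-05. None of the 33 replicate 1 members under 50 bp was shared, and 1 of 14 was in replicate 2. How often peaks this narrow were shared elsewhere is not given here, so this is not shown to be particular to members. Of members found by replicate 1 alone, the strongest was at 11350076 to 11350271, with a value of 1.81e-07 at place 461. Of those found by replicate 2 alone, it was at 10697062 to 10697405, with 6.74e-07 at place 546. Most members found in 1 replicate did not lie close to a listed peak of the other. Only 3 of the 142 and 3 of the 86 lay within 200 bp of a peak of the other replicate. Distance cannot show whether the other replicate had a signal too weak to be listed. Of these members, 119 of 142 (83.8%) and 77 of 86 (89.5%) overlapped a series peak. The same counts for peaks elsewhere are not given here.

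Within the shared regions the replicates placed the peaks alike and ranked them less closely. The median difference between the replicates' starts was 31 bp and between their ends 30 bp. Spearman's rho across the 135 regions, given as a description since sites of the same libraries are not independent, was 0.833 for widths and 0.645 for significance values. Over all 1209 shared regions without the broad peaks, rho was 0.836 and 0.717. The value was stronger in replicate 1 for 76 regions and in replicate 2 for 59, where over all 1209 it was for 626 and 583. In 61 of the 135 (45.2%) the values lay within a factor of 10 of each other, and in 21 they differed by more than a factor of 1000. The same counts for regions elsewhere are not given here, so such differences are not shown to be particular to members. The region at 9725535 to 9725786, chosen after its values were seen, had 7.33e-06 in replicate 1 and 1.90e-12 in replicate 2. That at 11068287 to 11068638, chosen in the same way, went the other way, with 2.16e-11 in replicate 1 and 9.03e-06 in replicate 2.

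**Figure D2:**
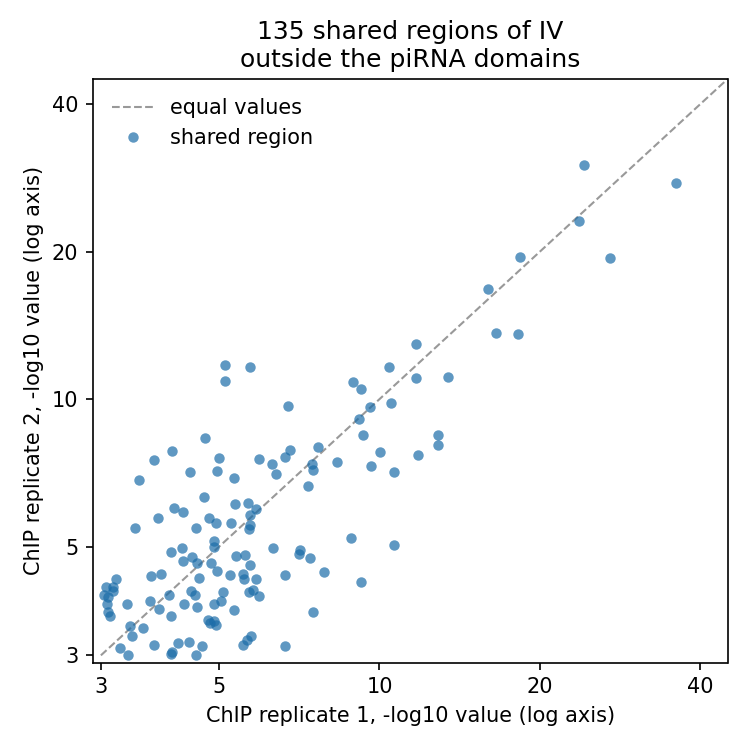
The −log10 value in ChIP replicate 2 (vertical, log axis) against that in ChIP replicate 1 (horizontal, log axis) for the 135 shared regions outside the piRNA domains; each point is 1 region and the dashed line marks equal values. In all, 76 regions were stronger in replicate 1 and 59 in replicate 2 (rho 0.645). The log axes narrow differences at the strong end. In −log10 value the largest difference was at the strong region at 654715 (8.33e-37 and 2.43e-28). The next was at 10935201 (7.57e-28 and 4.03e-20).

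Members lay mostly apart from one another. Of the 135 shared regions, 20 (14.8%, 9.29 to 21.9%) had another within 2000 bp, where 19.1% of all shared regions did, and 48 (35.6%, 27.5 to 44.2%) had one within 10000 bp, where 43.1% did. The piRNA domain regions had 16 of 58 (27.6%, 16.7 to 40.9%) within 2000 bp. Joining members within 10000 bp gave 87 single regions, 21 pairs and 2 groups of 3. The group of 3 at 4014543 to 4025192 held the member at place 11, and its best replicate 1 value was 2.04e-12, with 9.12e-12 in replicate 2. The other group of 3, at 11063184 to 11068638, reached 2.16e-11 in replicate 1 and 9.03e-06 in replicate 2.

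The borders of the domains cut no peak in any list. The nearest shared member lay 49859 bp from a border, and the nearest shared region inside a domain 13637 bp. At the border at 4.5 Mb, the last member, at 4445737 to 4446110, had values of 2.31e-10 and 5.13e-08, and the first domain region, at 4513438 to 4513836, had 1.98e-05 and 9.05e-07. At the border at 17.2 Mb, the first member was the strong region at 17249676, and the last domain region, at 16865489 to 16865756, had 6.48e-05 and 0.000517. At 7 Mb the nearest member started at 7084815 (0.000694 and 8.85e-05) and the nearest domain region at 6881220 (0.000311 and 3.61e-06). At 13.5 Mb they started at 13394929 (1.48e-05 and 2.32e-05) and at 13695821 (4.53e-05 and 0.000962). In both replicates the outer region was the stronger at 4.5, 13.5 and 17.2 Mb, and the inner one at 7 Mb.

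Nearly all members of the replicate lists were also in the series list, which held many more. Of the replicate 1 members, 254 of 277 (91.7%, 87.8 to 94.7%) overlapped a series peak, where 93.4% of all replicate 1 peaks did. Of the replicate 2 members, 212 of 221 (95.9%, 92.4 to 98.1%) did, where 95.2% of all did. In the other direction, 138 of 1216 series members (11.3%, 9.62 to 13.3%) overlapped both replicates, where 17.3% of all series peaks did. As many as 891 (73.3%, 70.7 to 75.7%) overlapped neither, where 63.1% of all series peaks did. The share in neither was 77.1% (73.3 to 80.5%) inside the piRNA domains and 59.3% (58.0 to 60.6%) on the other chromosomes. Its list describes the same ChIP samples as the replicate lists and adds no independent evidence; the sources used here do not say how it was made.

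Among series peaks of like strength, the share found in a replicate was low for members, as it was inside the piRNA domains and on chromosome I, and higher on the remaining chromosomes; the differences are given with intervals and were not tested. Of series members with values between 1e-06 and 1e-08, 42 of 204 (20.6%, 15.3 to 26.8%) overlapped a replicate peak. Inside the piRNA domains the share was 17 of 90 (18.9%, 11.4 to 28.5%), on chromosome I 100 of 329 (30.4%, 25.5 to 35.7%), and over II, III, V and X together 373 of 522 (71.5%, 67.4 to 75.3%). Each of these last 4 chromosomes had a share between 68.1% and 78.4%. The size of these shares moved with the setting. Against replicate 2 alone the share was 6.37% for members and 41.8% on II, III, V and X, and against replicate 1 alone it was 14.2% and 45.8%. With peaks of values under 0.0001 it was 6.86% and 34.9%, with the better-scoring 50% of each list 0.980% and 17.2%, and with an overlap of at least 50% of both peaks 11.3% and 61.7%. The share of members was the lower under each of these 5 settings. The values of II, III, V and X under these settings were added after the data were seen. Between 1e-08 and 1e-10 the shares were 53.0% (43.5 to 62.4%) for members, 58.1% inside the domains, 57.3% on I and 91.1% (86.9 to 94.3%) on the other 4. Below 1e-15 nearly every series peak was in a replicate, with 98 of 99 among members. The intervals of members and of II, III, V and X do not overlap in any class but the strongest.

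**Figure D3:**
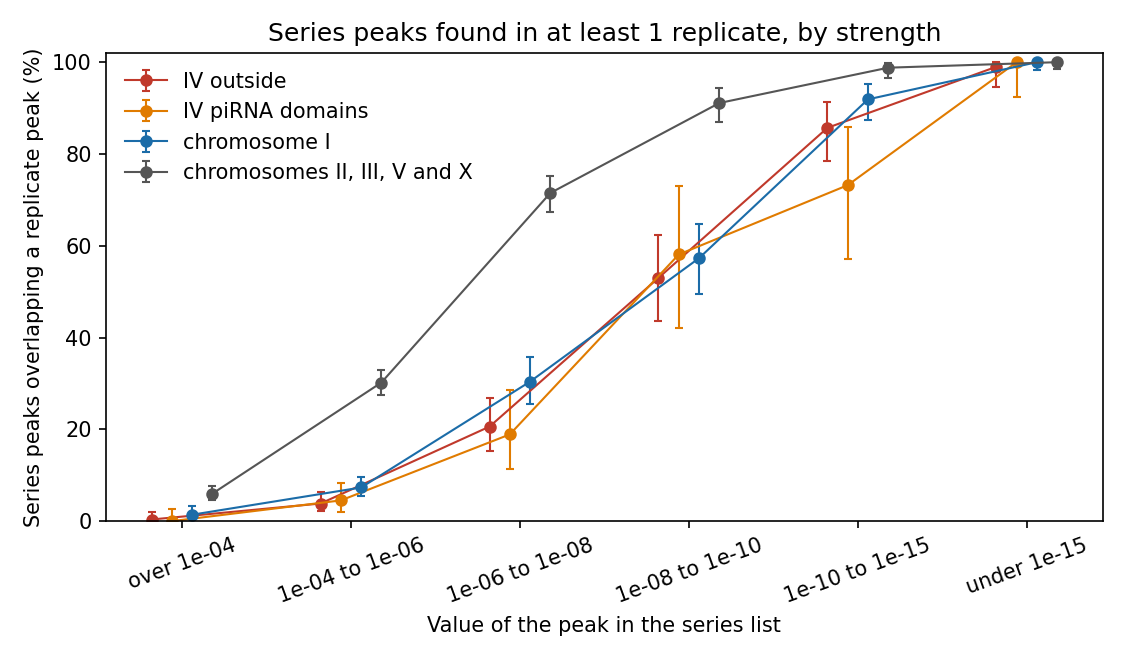
Percent of series peaks that overlap a peak of at least 1 ChIP replicate (vertical axis) by the value of the peak in the series list (horizontal axis, weak to strong); points are shares and bars exact 95% binomial intervals. Below the strongest class, the points of IV outside the piRNA domains, the domains and chromosome I all stand under those of chromosomes II, III, V and X, though not at 1 level, at 20.6%, 18.9%, 30.4% and 71.5% in the class from 1e-06 to 1e-08, and all meet near 100% below 1e-15.

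Shared members had larger values in the series list relative to the replicates than shared regions of most other chromosomes, again without a test. This comparison uses the same lists as the shares above. As all lists end just under 0.001, the shares and the ratios depend on each other, and neither is separate support for the other. For each shared region the −log10 value of its strongest series peak was divided by the mean −log10 value of the replicates. The median ratio over the 135 members was 3.18 (interquartile range 2.82 to 3.52). It was 3.25 (2.87 to 3.55) inside the piRNA domains and 2.94 (2.68 to 3.21) on chromosome I. On chromosomes II, III, V and X the medians were 2.13, 2.09, 2.09 and 2.10, and the 714 regions there had an interquartile range of 1.95 to 2.24. Of the 135 members, 126 (93.3%) lay above 2.50, the 90th percentile of those 714 regions. Most regions of the piRNA domains and of chromosome I did too, as their lower quartiles were 2.87 and 2.68. A high share above 2.50 was thus not particular to members. Against replicate 1 alone the median was 3.09 for members and 2.13 for II, III, V and X, and against replicate 2 alone 3.20 and 2.07.

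**Figure D4:**
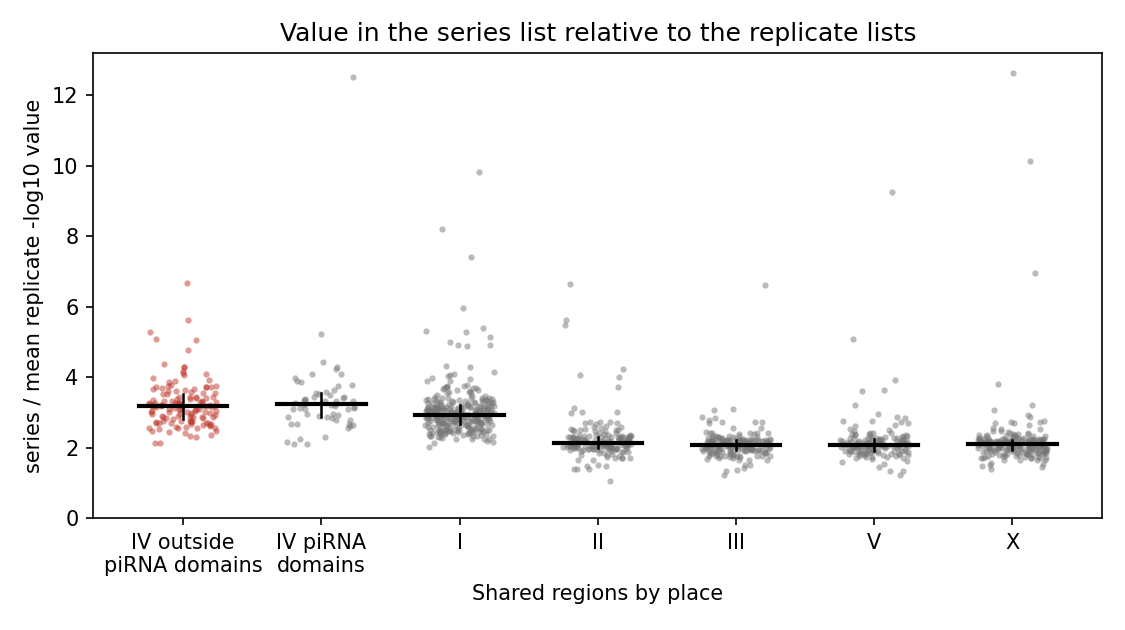
Ratio of the series −log10 value to the mean replicate −log10 value (vertical axis) in each shared region, by place (horizontal axis); points are regions, thick lines medians and thin lines interquartile ranges. Members (median 3.18), the piRNA domains (3.25) and chromosome I (2.94) stand above chromosomes II, III, V and X (2.09 to 2.13).

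The counts of peaks differed by place as well. For members the series list held 4.88 peaks per peak of the mean replicate list. The ratio was 5.55 inside the piRNA domains, 3.68 on chromosome I, 2.98 on II, 2.61 on III, 3.22 on V and 2.63 on X. Among members it was 5.79 in the left block, 4.26 in the middle block and 8.86 in the right block, which held few peaks. These ratios share the same lists with the shares and values above and are no separate support for them. The medians of the replicate values themselves did not stand higher for members: over shared regions the median −log10 value was 5.27 in replicate 1 and 4.91 in replicate 2 for members, against 5.59 and 5.53 over all 1209 shared regions.

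The broad peaks were set apart from all other members by width. Replicate 1 gave widths of 7256, 3632 and 11470 bp and replicate 2 gave 7355, 3635 and 11465 bp, where the widest other member measured 1853 bp in replicate 1 and 1239 bp in replicate 2. The gaps between the merged regions were 5313 and 1438 bp. In the series list their widths were 7372, 3686 and 11527 bp and their values 8.42e-303, 7.58e-166 and 0. For the first and the second, where a ratio can be formed, the series −log10 value was 3.29 and 2.53 times the replicate mean. A further series peak at 9048094 to 9049484 (1391 bp, 2.68e-14) ended 254 bp to their left; it overlapped neither replicate and was a member by its midpoint. The worms carry nhr-11 as a transgene, and the number of copies of any stretch in it was not analysed here.

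To the right of the broad peaks other members were sparse, and to their left they were not. In the 0.5 Mb to the left of their middle, replicate 1 and replicate 2 each had 26 peaks per Mb and the series list 90. The nearest shared region on the left, at 8978054 to 8978445, was 71293 bp away, and the nearest on the right, at 9441080 to 9441243, was 362121 bp away. Together these bound the longest gap between shared members within a block, 462634 bp. Series members lay inside that gap, as at 9121610 to 9121755. Between 9 and 10 Mb, without the broad peaks, each replicate list held 10 members and the series list held 21. In the other 8 complete 1 Mb stretches outside the domains, replicate 1 held 12 to 39, replicate 2 held 13 to 31 and the series list held 83 to 129. The counts of this stretch were below that range in all 3 lists, and farthest below it in the series list. Replicate counts near or below these were found elsewhere. From 16 to 17 Mb, inside the second domain, the replicates held 11 and 10 peaks. On V from 17 to 18 Mb they held 3 and 7, with 20 series peaks.

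**Figure D5:**
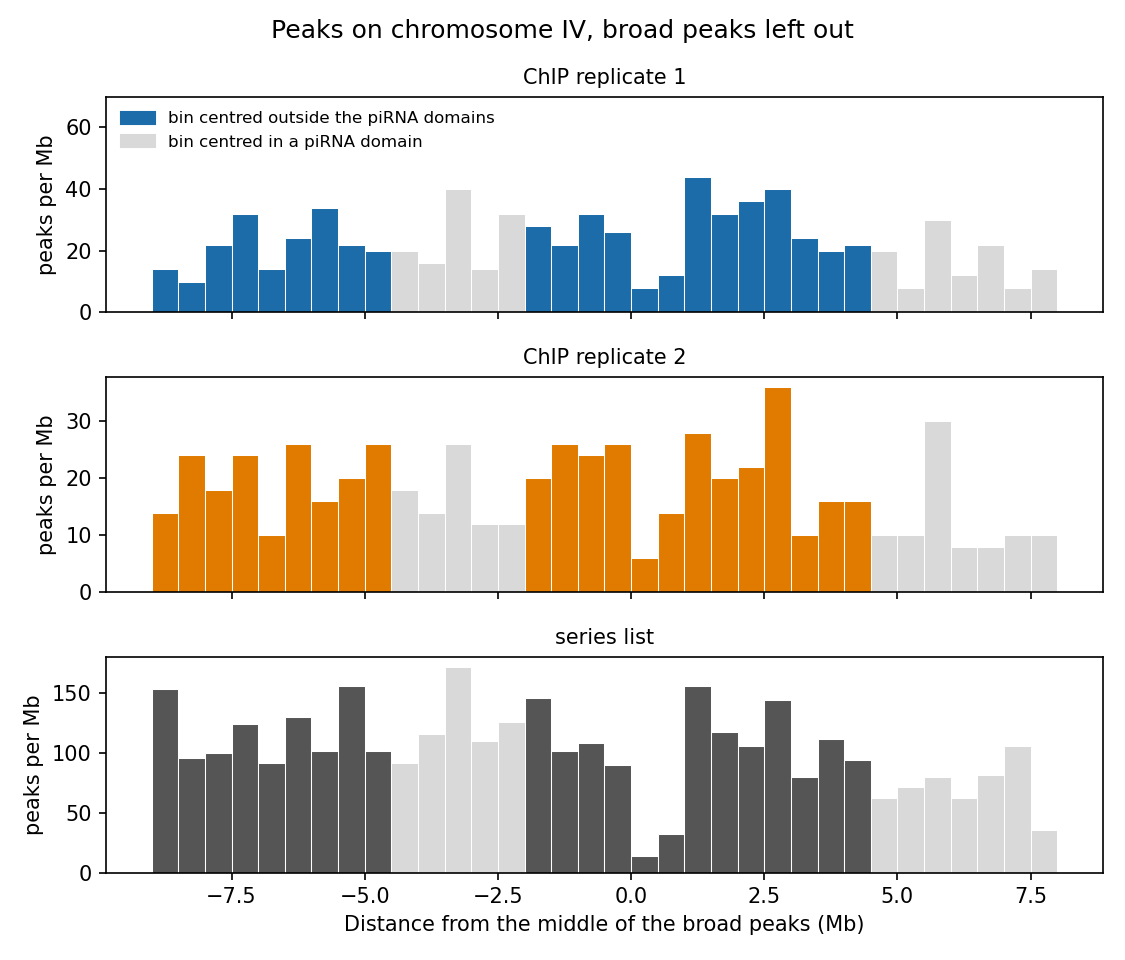
Peaks per Mb on chromosome IV (vertical axis) in bins of 0.5 Mb by distance from the middle of the broad peaks (horizontal axis, Mb), with the broad peaks left out; coloured bars are bins centred outside the piRNA domains and grey bars bins centred inside them, with 1 panel for each list. The bin from 0 to 0.5 Mb to the right of the broad peaks is the lowest coloured bar of each panel, with 14 series peaks per Mb, and the next bin has 32.

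The series list lacked weak peaks there. None of its 21 members between 9 and 10 Mb had a value over 0.0001, and the weakest was 2.66e-05. Elsewhere 281 of 1195 series members (23.5%) had a value over 0.0001, and the share was 17.5 to 31.0% in the other 8 complete stretches. The replicate lists did hold weak members in the stretch: 5 of 10 in replicate 1 and 6 of 10 in replicate 2 had values over 0.0001, where 39.0% and 44.1% of the other members did. From 8946079 to 10012817, a run of 1066737 bp, the series list had no peak over 0.0001 but 30 stronger ones, the broad peaks included. The longest such run on any other chromosome was 400120 bp, on X, and the next on IV was 327343 bp. Of the 97 complete 1 Mb stretches of the genome, that between 9 and 10 Mb of IV had the lowest ratio of series peaks to mean replicate peaks (1.85, broad peaks included) and was the only one with 0 series peaks over 0.0001. The cause was not tested.

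The 6 shared regions of that stretch had ratios among those of the other members. Besides the region at 9725535, they started at 9441080, 9444418, 9509447, 9677679 and 9735836, and the values of all 6 ran from 0.000806 to 4.69e-06 in replicate 1 and from 0.000213 to 1.90e-12 in replicate 2. Their ratios of series to replicate −log10 values ran from 3.02 to 3.45 with a median of 3.25, within the interquartile range of all members.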

How the data were processed

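Per the file headers, coordinates follow WormBase build WS220; PeakSeq is given there as the source of each peak. The value of each peak deposited by the authors is a p-value or q-value; the control, aligner, threshold and the making of the series list are not given in the sources used here. Per the labels' protocols, worms were fixed with 2% formaldehyde and 10% of the lysate (or 50 µl) was kept as input. Input libraries were not analysed here. No read counts were used here, so depth and precision per peak are unknown.

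Peaks overlapping by at least 1 bp were counted as found in both lists and merged into regions, and membership was read from the midpoint. Region values are those of the strongest peak of each list, ranked within whole lists; 1 series peak listed at 0 was left out of ratios. The end of a chromosome was set at the last base of any listed peak. Named were the first 20 shared members by summed rank, full values for 10, the strongest member of each single list, and the groups with the most regions. The members, the rule and the alternatives were chosen with earlier results of these data known. Overlap counting was tested on simulated lists. Alternatives were a stricter overlap, stronger values, moved borders, the broad peaks included and each replicate alone. Python 3.11.15, numpy 2.4.6, pandas 2.3.3, scipy 1.17.1 and matplotlib 3.10.9 were used.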

Additional observations from a re-analysis of the deposited data

How the results depend on the processing

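Of 99 alternative values, 73 stayed within the set limits (1.5 times for counts, the 95% interval for shares, 1 SD of the replicates for ratios, 0.1 for rho) and 26 moved. Requiring an overlap of 50% of both peaks lowered the shared members to 42.6% in replicate 1 and 53.4% in replicate 2, raised the series members in neither replicate to 78.0% and lowered the share found between 1e-06 and 1e-08 to 11.3%. Keeping values under 0.0001 left 145 members per replicate on average and 87 shared regions, with 71.3% of replicate 2 members shared, 79.1% of series members in neither replicate, 6.86% found between 1e-06 and 1e-08, a density ratio of 1.24 and a series ratio of 3.08. The better-scoring 50% of each list left 108, 638 in the series list and 68 shared regions; the shares were 73.9% in replicate 2, 77.6% in neither and 0.980% found, and the ratios 1.19 and 3.04. Both settings remove weak replicate peaks, so fewer series peaks can be found. Larger and smaller domains gave density ratios of 1.30 and 1.29. Leaving out a replicate gave 221 to 277 members, 79.3 to 82.6% of series members in neither, 6.37 to 14.2% found between 1e-06 and 1e-08 (20.6% with both), density ratios of 1.33 to 1.41 and series ratios of 3.09 to 3.20. The density ratio stayed above 1 in every setting run, but no setting took the domains apart. Leaving out 9 to 10 Mb, and the results on series peaks of 1e-06 to 1e-08 and on the series ratio with all their settings, were chosen after seeing the data; without 9 to 10 Mb every value computed stayed within the limits. Genes beside regions were not examined, as no WS220 annotation was used. No paired analysis was possible because only the ChIP samples were analysed here. Depth is unknown, so weak sites may be missed in either replicate.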
